A study of Danio rerio with 14 samples.

Results

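The genes lss, cyp51, tm7sf2, msmo1, nsdhl, hsd17b7, ebp, sc5d and dhcr7 encode enzymes that turn squalene epoxide into cholesterol. They were chosen by symbol from a table of raw read counts for whole zebrafish embryos, 9 of 36109 genes. The choice was made with earlier results of these data known. All 9 passed the low-count filter that kept 24424 genes. The study asks how loss of mttp, whose product fills apolipoprotein B particles with lipid for export, alters the embryo. RNA was sequenced from mttp knockout embryos at 48 hours post fertilization (hpf, 3 libraries) and their siblings at 48 hpf (3 libraries), and from mttp knockout embryos at 24 hpf (4 libraries) and their siblings at 24 hpf (4 libraries). The knockout was made with CRISPR/Cas9, and siblings carry the label "sib" and no treatment; the labels give neither the allele, nor the genotypes among the siblings, nor the number of embryos per library. Nothing in the labels says that libraries of a group came from separate clutches, so p-values measure the spread between these libraries, which may be technical.

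Cholesterol is built in the endoplasmic reticulum from acetyl-CoA. The mevalonate pathway first makes squalene, an open chain, and the enzymes described here then close its rings, strip surplus methyl groups and move or remove double bonds. When membrane sterol is low, the transcription factor Srebf2 is released from the endoplasmic reticulum and raises transcription of many of these enzymes, a loop worked out in mammalian cells. In the zebrafish embryo the yolk also supplies cholesterol, carried out of the yolk syncytial layer on lipoproteins. Enzyme roles given below are known from mammals and yeast.

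Libraries held 29422983 to 46534187 counts, and a member had between 8 and 2201 counts in a library. As a check of the labels, mttp measured 11.4, 7.53 and 6.23 CPM (TMM-scaled counts relative to library size) in mutants at 48 hpf, against 30.3, 19.3 and 38.5 CPM in siblings. At 24 hpf mttp measured 9.05, 7.90, 10.5 and 11.3 CPM in mutants and 67.6, 67.3, 79.6 and 70.3 CPM in siblings. The log2 fold change of mttp was -1.81 ± 0.23 at 48 hpf (SE, adjusted p = 8.12e-05) and -2.88 ± 0.21 at 24 hpf (adjusted p = 1.57e-07). Markers of yolk syncytial layer, blood, neurons, skeletal muscle and epidermis were present in every group; of 6 liver markers fabp1a was at 0 counts in siblings at 48 hpf. The sibling library numbered 3 at 48 hpf and that numbered 2 at 24 hpf stood apart, with mitochondrial genes taking 0.696% of counts in the 48 hpf library, 0.847% in the 24 hpf library and 1.27% to 1.97% in the other 12 libraries. Where leaving both out changed a call on a gene named below, the value without them is given.

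**Figure D1:**
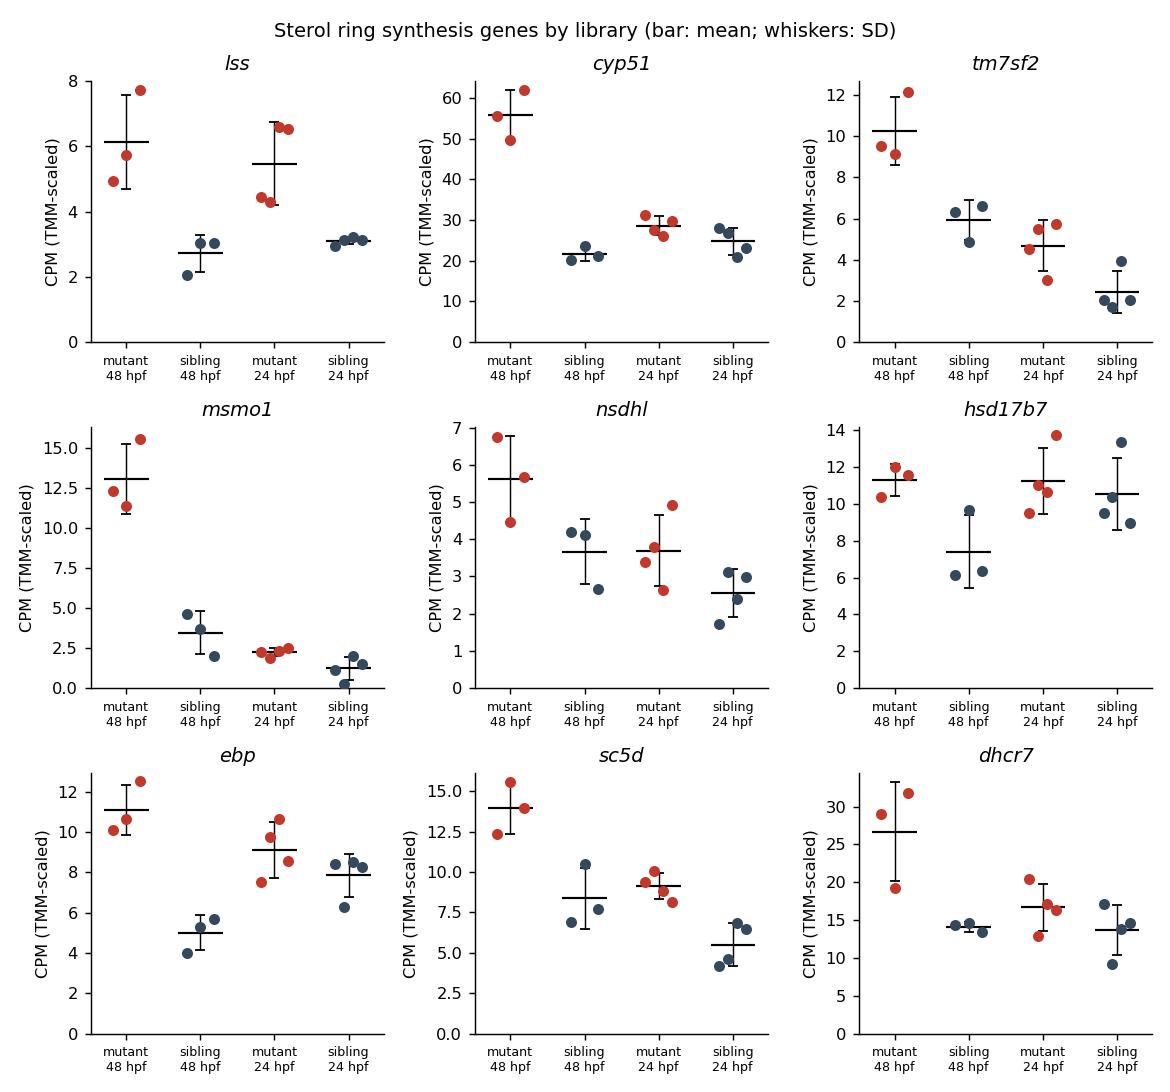
TMM-scaled CPM of each gene (vertical axes, from 0) in mutants and siblings at 48 and at 24 hpf; points are libraries, bars means and whiskers SD. At 48 hpf the mutant points lie above the sibling points in all 9 panels.

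RNA of the sterol ring genes was more abundant in mutants than in siblings at 48 hpf. Of the 9 genes 6 were called higher (adjusted p under 0.05 by edgeR's quasi-likelihood test over all genes) and 0 lower. Of all genes tested, 4.26% were called higher and 1.80% lower. At an unadjusted p under 0.05, 8 of the 9 were higher and 0 lower. All 9 were higher in every mutant library than in every sibling library, as were 12.0% of all genes tested. Their median log2 fold change was 0.92, against -0.0046 over all genes. Summed over the 9 genes, mutants had 151, 138 and 173 CPM at 48 hpf, against 68.9, 79.3 and 68.6 CPM in siblings. In whole-embryo RNA, a change in the number of cells that use a gene cannot be told apart from a change in RNA per cell.

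Ring closure and the first changes to the ring are the work of lss, cyp51 and tm7sf2. Lanosterol synthase, the product of lss, closes squalene epoxide into lanosterol. Its RNA measured 4.93, 5.73 and 7.72 CPM in mutants at 48 hpf, against 2.07, 3.06 and 3.03 CPM in siblings. The groups did not overlap, and the 2.25-fold rise was called (log2 fold change 1.17 ± 0.25 SE, adjusted p = 0.00858). The P450 enzyme cyp51 removes a methyl group from lanosterol. It measured 55.5, 49.8 and 62.0 CPM in mutants and 20.1, 23.6 and 21.2 CPM in siblings. The lowest mutant library stood at 49.8 CPM and the highest sibling library at 23.6 CPM. The rise of 2.58-fold (1.37 ± 0.13, adjusted p = 4.01e-06) had the smallest p of the 9 genes, the 46th smallest among all genes tested. A reductase encoded by tm7sf2 removes the double bond that cyp51 leaves. Its RNA measured 9.51, 9.14 and 12.2 CPM in mutants, against 6.34, 4.84 and 6.61 CPM in siblings. The libraries did not overlap but the difference was not called (0.79 ± 0.29, 95% interval 0.17 to 1.41, adjusted p = 0.145), except by limma-voom (0.77, adjusted p = 0.0443).

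The next 3 enzymes, msmo1, nsdhl and hsd17b7, act in turn to strip a pair of methyl groups from the ring. The oxidase gene msmo1 measured 12.3, 11.3 and 15.5 CPM in mutants at 48 hpf, against 4.63, 3.71 and 2.02 CPM in siblings. Its rise of 3.79-fold was the largest of the 9 (1.92 ± 0.44, adjusted p = 0.0122), with a 95% interval of 1.00 to 2.85 on the log2 scale. For nsdhl, the dehydrogenase of this step, mutants measured 6.76, 4.46 and 5.67 CPM and siblings 4.21, 4.13 and 2.66 CPM. The nearest mutant and sibling libraries were 4.46 and 4.21 CPM, and the difference was not called (0.62 ± 0.30, adjusted p = 0.282). The reductase gene hsd17b7 measured 10.3, 12 and 11.6 CPM in mutants and 6.16, 9.69 and 6.33 CPM in siblings. It too was not called (0.62 ± 0.20, 95% interval 0.19 to 1.04, adjusted p = 0.0915), except without sibling replicate 2 (0.86, adjusted p = 0.0197) and by limma-voom (adjusted p = 0.0486).

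Later steps are those of ebp, sc5d and dhcr7. The isomerase gene ebp, which shifts a double bond within the ring, measured 10.1, 10.6 and 12.5 CPM in mutants at 48 hpf, against 4.03, 5.30 and 5.69 CPM in siblings. This rise of 2.21-fold was called (1.15 ± 0.19, adjusted p = 9.71e-04). The desaturase gene sc5d measured 12.3, 15.6 and 14 CPM in mutants and 6.92, 10.5 and 7.71 CPM in siblings. Its rise was the smallest among those called (0.74 ± 0.20, adjusted p = 0.0402). The gene dhcr7, whose reductase makes cholesterol in the last step of this branch, measured 29, 19.3 and 31.8 CPM in mutants and 14.4, 14.6 and 13.4 CPM in siblings. Siblings were close to each other while mutant replicate 2 lay well below the other mutants, and the rise was called (0.92 ± 0.22, adjusted p = 0.0159).

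The calls for cyp51 and ebp at 48 hpf held under all 16 alternatives. Without mutant replicate 3 they were the 2 calls left, as lss (adjusted p = 0.0589), msmo1 (adjusted p = 0.0605), sc5d (adjusted p = 0.101) and dhcr7 (adjusted p = 0.0843) missed the threshold. The call of sc5d also ended without mutant replicate 1 (adjusted p = 0.0570) or 2 (adjusted p = 0.146) and without sibling replicate 1 (adjusted p = 0.127) or 3 (adjusted p = 0.0988). That of dhcr7 ended without mutant replicate 1 (adjusted p = 0.0624). Fitting the 48 hpf libraries alone ended the calls of sc5d (adjusted p = 0.0778) and lss (adjusted p = 0.0503). Leaving out both libraries of low mitochondrial share left 5 calls, sc5d being lost (adjusted p = 0.0883), while limma-voom called 8 of the 9 higher and DESeq2 6. Both tools also called 0 members lower at 24 hpf, in the difference between stages and between stages in mutants. Of the tissue marker lists at 48 hpf, the skeletal muscle list was the one whose sums did not overlap. They ranged from 24810 to 27120 CPM in mutants at 48 hpf and from 30210 to 35480 CPM in siblings, with 1 of 6 called lower and none at 0. At an unadjusted p under 0.05 by edgeR, 5 of these 6 muscle markers were lower. Their median log2 fold change was -0.34, and 0 of the 6 were above 0. Single markers were also called in lists whose sums overlapped. Of 5 liver markers tested, 1 was called higher and 1 lower, so that sum joins opposed changes. In the yolk syncytial layer list and in the neuron list 1 of 6 was called lower. In the erythroid and epidermis lists 0 were called. The part of these markers in the result was not tested.

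**Figure D2:**
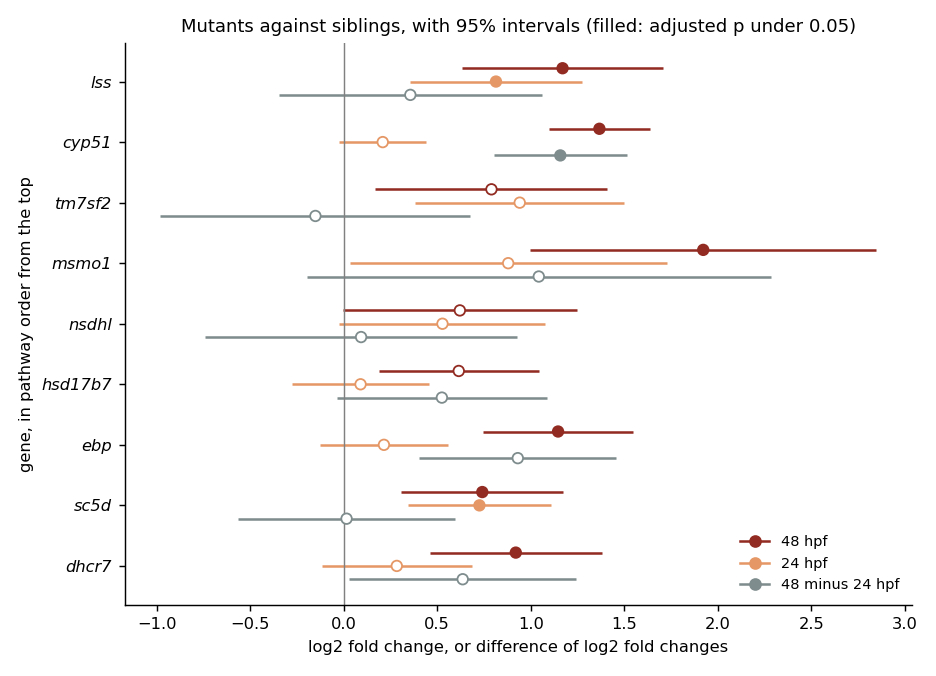
Log2 fold change of mutants against siblings at 48 hpf and at 24 hpf, and the difference between these effects (48 minus 24 hpf), with 95% intervals, for the 9 genes in pathway order; filled points passed an adjusted p of 0.05. Effects at 48 hpf run from 0.62 to 1.92, and cyp51 is the gene whose difference between stages was called.

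At 24 hpf fewer of the genes passed the test. Of the 9 genes 2 were called higher, lss and sc5d, and edgeR called 0 lower; of all genes tested, 1.50% were called higher and 2.33% lower. All 9 log2 fold changes were above 0, with a median of 0.53 against -0.0028 over all genes, and 4 genes had an unadjusted p under 0.05, all higher. Of the genes called over the whole table, 39.2% were higher, and 63.7% under scaling by library size alone, where the median over all genes was 0.0986; no member changed direction under that scaling.

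The gene lss measured 4.46, 4.29, 6.60 and 6.54 CPM in mutants at 24 hpf, against 2.96, 3.13, 3.23 and 3.13 CPM in siblings. Siblings agreed closely while the mutants formed a lower and a higher pair, and the rise was called (0.81 ± 0.22, adjusted p = 0.0480). For sc5d mutants measured 9.37, 10.1, 8.83 and 8.18 CPM and siblings 4.16, 4.61, 6.83 and 6.45 CPM (0.73 ± 0.18, adjusted p = 0.0324). Both calls were close to the threshold. The call of lss ended when any 1 library of the stage other than mutant replicate 2 was left out (adjusted p = 0.0522 to 0.154). That of sc5d ended without any 1 of the 4 mutant libraries or sibling replicate 1 or 2 (adjusted p = 0.0524 to 0.104). Without both libraries of low mitochondrial share neither was called, at adjusted p of 0.0564 for lss and 0.0565 for sc5d. The lss call was also lost by limma-voom (adjusted p = 0.0677) and without a low-count filter (adjusted p = 0.0597).

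The reductase gene tm7sf2 had the largest estimate of the 9 at 24 hpf, with 4.52, 5.51, 3.00 and 5.72 CPM in mutants against 2.03, 1.71, 3.94 and 2.07 CPM in siblings. Sibling replicate 3 lay above mutant replicate 3, and the difference was not called (0.94 ± 0.27, 95% interval 0.38 to 1.5, adjusted p = 0.0590). Without that sibling library it was called (1.27, adjusted p = 0.00761), without mutant replicate 3 likewise (1.12, adjusted p = 0.0276), and DESeq2 called it on all libraries (adjusted p = 0.0116). It was also called under library-size scaling (adjusted p = 0.0371), under a CPM filter (adjusted p = 0.0497) and without a low-count filter (adjusted p = 0.0479). The oxidase gene msmo1 measured 2.25, 1.87, 2.33 and 2.49 CPM in mutants and 1.11, 0.236, 1.99 and 1.52 CPM in siblings. Sibling replicate 2 rested on 8 counts, where the exact 95% counting interval ran from 0.0934 to 0.426 CPM without TMM scaling, and the difference was not called (0.88 ± 0.40, adjusted p = 0.286). The dehydrogenase gene nsdhl overlapped between the groups, with 3.40, 3.79, 2.64 and 4.94 CPM in mutants and 1.72, 3.13, 2.39 and 2.98 CPM in siblings (0.53 ± 0.26, adjusted p = 0.336).

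The other 4 genes, cyp51, hsd17b7, ebp and dhcr7, had the smallest estimates at 24 hpf, from 0.09 to 0.28, and none was called. The demethylase gene cyp51 measured 31.1, 27.6, 26 and 29.8 CPM in mutants against 28.1, 26.8, 21 and 23.2 CPM in siblings, with a 95% interval of the log2 fold change of -0.023 to 0.44. The isomerase gene ebp ranged from 7.51 to 10.7 CPM in mutants and from 6.27 to 8.50 CPM in siblings, with an interval of -0.13 to 0.56. For hsd17b7 the ranges were 9.5 to 13.8 CPM in mutants and 8.97 to 13.4 CPM in siblings, with an interval of -0.28 to 0.46. For dhcr7 they were 12.9 to 20.4 CPM in mutants and 9.16 to 17.2 CPM in siblings, with an interval of -0.12 to 0.68. These intervals leave room for rises of up to 1.60-fold in dhcr7, so that the genes cannot be said to be equal between the groups.

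Marker sums without overlap at 24 hpf were those of the yolk syncytial layer, 9006 to 11720 CPM in mutants and 11740 to 14790 CPM in siblings, with 3 of 6 genes called lower. All 6 were lower at an unadjusted p under 0.05 by edgeR, with a median log2 fold change of -0.52. Liver markers summed to 144 to 214.8 CPM in mutants and 296.8 to 341 CPM in siblings, with 1 of 5 tested called lower. That gene was serpina1, which made up most of the sum, at a mean of 135 CPM in mutants and 274 CPM in siblings. Of the 5, 3 had log2 fold changes above 0, and these 3 had group means of at most 1.08 CPM at 24 hpf. They added little to the sum. Epidermis markers summed to 25110 to 26410 CPM in mutants and 26620 to 32690 CPM in siblings, with 1 of 6 called lower. None of these markers was at 0 at 24 hpf, and their part in the result was not tested.

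The question of whether the mutant effect was larger at 48 hpf was tested as the difference between both effects. One gene, cyp51, passed: its effect was 1.37 at 48 hpf and 0.21 at 24 hpf, a difference of 1.16 ± 0.17 on the log2 scale (95% interval 0.80 to 1.51, adjusted p = 7.49e-04). That is 1 of 9 members called higher and 0 lower (also 0 at an unadjusted p under 0.05), where 2.43% of all genes were called higher and 0.737% lower. The call for cyp51 held in each of the alternatives run. The isomerase gene ebp just missed the threshold (0.93 ± 0.25, adjusted p = 0.0519); it was called without both libraries of low mitochondrial share (1.08, adjusted p = 0.0164), without the sibling library numbered 2 at 24 hpf (1.02, adjusted p = 0.0300) or that numbered 3 at 48 hpf (1.04, adjusted p = 0.0265), and by DESeq2 (0.90, adjusted p = 0.0154).

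For the remaining genes the difference between stages was not called. The estimate for msmo1 was large but loose, 1.04 ± 0.59 (95% interval -0.20 to 2.28), and those of dhcr7, hsd17b7 and lss were 0.64 ± 0.29, 0.52 ± 0.27 and 0.36 ± 0.33. For sc5d the effects were 0.74 at 48 hpf and 0.73 at 24 hpf, a difference of 0.015 ± 0.27 with an interval of -0.56 to 0.59. The gene tm7sf2 had the one estimate below 0, -0.15 ± 0.39, and nsdhl had 0.093 ± 0.39. Over the 9 genes the median difference was 0.52, against 0.019 over all genes.

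The stages were also compared within each genotype. In mutants 5 of the 9 were called higher at 48 than at 24 hpf, cyp51, tm7sf2, msmo1, sc5d and dhcr7, and edgeR called 0 lower (also 0 at an unadjusted p under 0.05). Among all genes 23.6% were called higher and 19.6% lower in mutants at 48 hpf. In siblings 3 were called higher, tm7sf2, msmo1 and sc5d, against 26.2% of all genes, and 2 were called lower, hsd17b7 and ebp, against 26.3% of all genes. The batch label is the stage itself, and the pair cannot be told apart, while mutants and siblings of a stage share both.

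**Figure D3:**
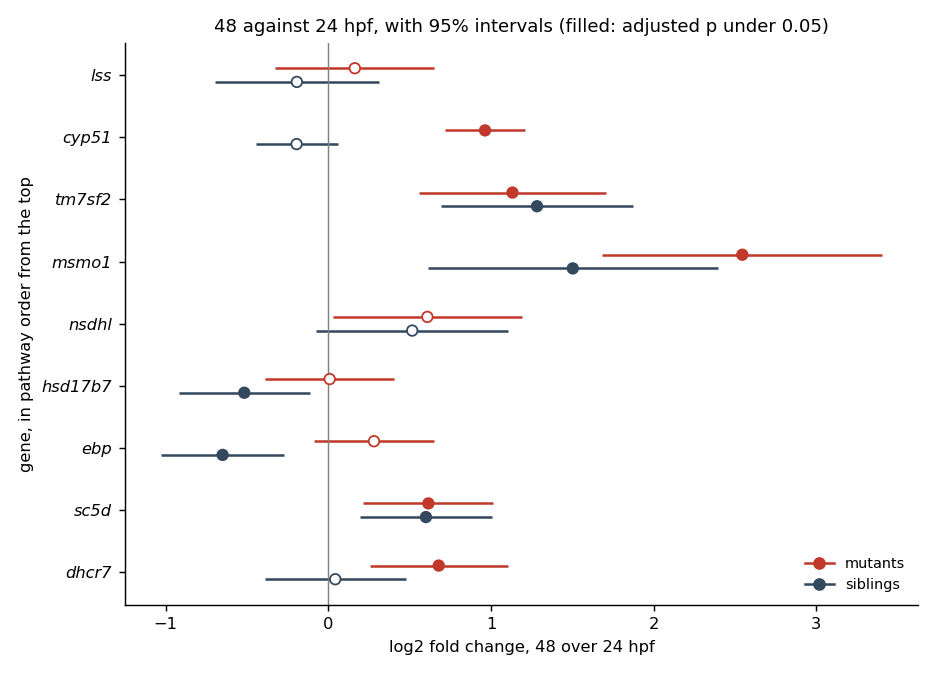
Log2 fold change of 48 against 24 hpf with 95% intervals, in mutants and in siblings, for the 9 genes in pathway order; filled points passed an adjusted p of 0.05. The intervals of cyp51 and ebp lie apart between mutants and siblings, while those of tm7sf2 and sc5d nearly coincide.

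For cyp51 mutants averaged 55.8 ± 6.14 CPM at 48 hpf (SD, n = 3) and 28.6 ± 2.27 CPM at 24 hpf (SD, n = 4), a rise of 0.96 ± 0.12 (adjusted p = 3.55e-06). Siblings averaged 21.6 ± 1.76 CPM at 48 hpf and 24.8 ± 3.27 CPM at 24 hpf, a difference that was not called (-0.20 ± 0.12, adjusted p = 0.185). For ebp the called change was that in siblings, which averaged 5.0 ± 0.870 CPM at 48 hpf and 7.87 ± 1.07 CPM at 24 hpf (-0.65 ± 0.18, adjusted p = 0.00584). Mutants averaged 11.1 ± 1.26 CPM of ebp at 48 hpf and 9.12 ± 1.38 CPM at 24 hpf (0.28 ± 0.17, adjusted p = 0.212).

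The reductase hsd17b7 fell in siblings to 7.39 ± 1.99 CPM at 48 hpf, against 10.6 ± 1.96 CPM at 24 hpf (-0.52 ± 0.19, adjusted p = 0.0314). This call ended without sibling replicate 1 (adjusted p = 0.132) or 3 (adjusted p = 0.109) at 48 hpf, without sibling replicate 3 at 24 hpf (adjusted p = 0.110), and when both libraries of low mitochondrial share were left out (adjusted p = 0.169). In mutants hsd17b7 averaged 11.3 ± 0.851 CPM at 48 hpf and 11.2 ± 1.81 CPM at 24 hpf (0.0085 ± 0.19, adjusted p = 0.978). For dhcr7 the averages in mutants were 26.7 ± 6.58 CPM at 48 hpf and 16.7 ± 3.10 CPM at 24 hpf, a rise (0.68 ± 0.20, adjusted p = 0.0110) that was lost without mutant replicate 3 at 48 hpf (adjusted p = 0.0560). Siblings averaged 14.1 ± 0.641 CPM of dhcr7 at 48 hpf and 13.7 ± 3.35 CPM at 24 hpf (0.043 ± 0.20, adjusted p = 0.880).

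Both genotypes rose with stage in 3 genes. The oxidase gene msmo1 averaged 13.0 ± 2.21 CPM in mutants at 48 hpf and 2.23 ± 0.263 CPM in mutants at 24 hpf (5.84-fold, adjusted p = 7.18e-05). In siblings msmo1 averaged 3.45 ± 1.33 CPM at 48 hpf and 1.21 ± 0.743 CPM at 24 hpf (2.83-fold, adjusted p = 0.00633). For tm7sf2 the rises were 1.13 ± 0.27 in mutants and 1.28 ± 0.28 in siblings, and for sc5d 0.62 ± 0.19 in mutants and 0.60 ± 0.19 in siblings. The sc5d calls ended without mutant replicate 2 at 48 hpf (adjusted p = 0.0554) and without sibling replicate 2 at 48 hpf (adjusted p = 0.0948).

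The ring-closing gene lss was called at neither stage comparison (0.16 ± 0.23 in mutants, -0.19 ± 0.24 in siblings), nor was nsdhl (0.61 ± 0.27 in mutants, 0.52 ± 0.28 in siblings). The call of nsdhl was gained in mutants without mutant replicate 4 at 24 hpf (adjusted p = 0.0468), and by limma-voom (adjusted p = 0.0450). In siblings it was gained without sibling replicate 3 at 48 hpf (0.70, adjusted p = 0.0496) and with both low-mitochondrial libraries left out (0.86, adjusted p = 0.0240). Marker sums of differentiating tissues moved with stage in both genotypes. Neuron markers summed to 1529 to 1673 CPM at 48 hpf and 541 to 587.7 CPM at 24 hpf in mutants, and to 1398 to 1766 CPM at 48 hpf and 408.8 to 556.9 CPM at 24 hpf in siblings. Skeletal muscle markers summed to 24810 to 27120 CPM at 48 hpf and 7390 to 8719 CPM at 24 hpf in mutants, and to 30210 to 35480 CPM at 48 hpf and 7417 to 9942 CPM at 24 hpf in siblings. All 6 genes of each of these lists were called higher at 48 hpf in both genotypes, and their part in the stage changes was not tested.

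Over single libraries, the mean of the 9 genes was higher in mutants at 48 hpf than in the other 11 libraries. This describes the levels given above again, and the share of all genes with such a pattern was not counted. Centred on each gene's mean over the 14 libraries, the mean log2 CPM of the 9 genes was 0.77, 0.70 and 1.00 in the mutants at 48 hpf, and every gene was above its own mean in each of these 3 libraries. Siblings at 48 hpf had -0.25, -0.065 and -0.32. Mutants at 24 hpf had 0.0075, 0.0048, -0.020 and 0.20, and siblings at 24 hpf had -0.55, -0.82, -0.24 and -0.41. Sibling replicate 2 at 24 hpf was the lowest library, and the gene furthest below its mean there was msmo1, at -3.28.

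**Figure D4:**
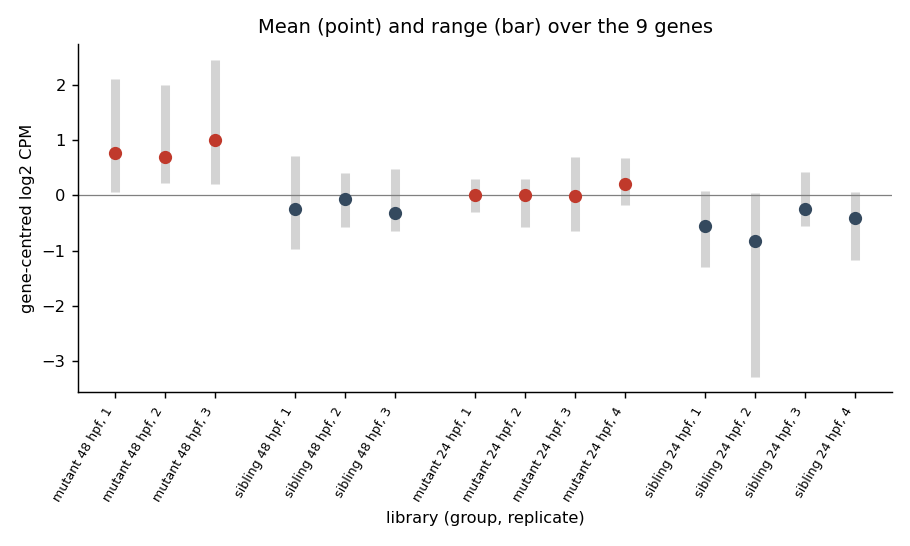
Log2 CPM centred on each gene's mean over 14 libraries (vertical axis) by library (horizontal axis, grouped by genotype and stage); points are the mean of the 9 genes and grey bars run from the lowest to the highest gene. The mean is at 0.70 to 1.00 in the mutants at 48 hpf and at -0.82 to 0.20 in the other 11 libraries.

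The genes differed in how closely they followed the common profile. The root mean square distance of a gene's centred profile from the mean of all 9 was 0.223 for sc5d, 0.260 for dhcr7 and 0.273 for cyp51, the nearest, on the log2 scale. It was 0.339 for nsdhl, 0.368 for lss, 0.418 for ebp, 0.474 for tm7sf2 and 0.481 for hsd17b7. The outlying gene was msmo1, at 1.01, which had both the largest mutant effect at 48 hpf and the lowest count in any single library. Of 17715 other genes with a mean log2 CPM of at least 1, 7 lay nearer to that mean than sc5d and 15703 nearer than msmo1. For the remaining members this number ran from 25 for dhcr7 to 2470 for hsd17b7. Each gene is part of the mean it was compared with, so these distances are descriptions.

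The gene cyp51 took 35.9% to 36.8% of the counts of the 9 genes in mutants at 48 hpf and 29.2% to 30.9% in siblings at 48 hpf. At 24 hpf its share was 29.6% to 33.6% in mutants and 28.0% to 41.0% in siblings. The 9 genes summed to 86.7 to 96.3 CPM in mutants at 24 hpf and to 65.4 to 75.2 CPM in siblings at 24 hpf. The sums thus did not overlap between genotypes at either stage, and how often sums of other genes do so was not counted. Taken singly, 9 of the 9 genes were higher without overlap in mutants at 48 hpf and 2 of the 9 at 24 hpf. Of all genes tested, 12.0% were so at 48 hpf, and the share at 24 hpf was not counted. Siblings averaged a sum of 72.3 ± 6.09 CPM at 48 hpf (SD, n = 3) and 71.7 ± 4.61 CPM at 24 hpf (SD, n = 4).

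Counts of overlapping neighbours were compared as well. The kit used does not mark strand, so reads from a stretch that genes share cannot be told apart by strand. In RefSeq's annotation of GRCz12tu the span of nsdhl overlaps that of cetn2, and the span of dhcr7 that of nadsyn1. Whether they share exons, or overlap in the annotation used for counting, was not examined. The log2 fold change of cetn2 was -0.32 ± 0.24 at 48 hpf (adjusted p = 0.554) and -0.021 ± 0.22 at 24 hpf (adjusted p = 0.983). That of nadsyn1 was 0.61 ± 0.21 at 48 hpf (adjusted p = 0.110) and -0.15 ± 0.18 at 24 hpf (adjusted p = 0.790). Long noncoding RNAs overlap cyp51, hsd17b7 and dhcr7 in the same annotation.

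Steps before the ring genes are those of the mevalonate pathway, of which 12 genes were tested. Of all genes tested at 48 hpf, edgeR called 4.26% higher and 1.80% lower. Of the 12, DESeq2 and limma-voom each called 7 higher and 0 lower, and at an unadjusted p under 0.05 by edgeR 8 were higher and 0 lower. The log2 fold changes of the 12 at 48 hpf ran from -0.028 to 1.89, with a median of 0.66. At 48 hpf 5 were called higher and 0 lower by edgeR. They were hmgcs1 (1.16 ± 0.15, adjusted p = 7.14e-05), which makes HMG-CoA, hmgcra (1.89 ± 0.34, adjusted p = 0.00193), which encodes the rate-limiting reductase, mvda (0.80 ± 0.18, adjusted p = 0.0127), fdps (0.65 ± 0.12, adjusted p = 0.00209) and fdft1, the squalene synthase gene (0.72 ± 0.14, adjusted p = 0.00414). The other HMG-CoA reductase gene tested, hmgcrb, was called at neither stage by edgeR. It averaged 54.1 CPM in mutants and 43.4 CPM in siblings at 48 hpf (0.32 ± 0.095, adjusted p = 0.0593). At 24 hpf hmgcrb averaged 52.6 CPM in mutants and 55.5 CPM in siblings (-0.078 ± 0.082, adjusted p = 0.742). The squalene epoxidase gene sqlea, which makes the substrate of lss, was not called by edgeR at 48 hpf (0.73 ± 0.23, adjusted p = 0.0729). Nor was acat2, whose estimate was near 0 (0.063 ± 0.12, adjusted p = 0.850).

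At 24 hpf the pathway split, with 2 of 12 called higher and 2 lower and a median of 0.14. Among all genes tested 1.50% were called higher and 2.33% lower at that stage. The reductase gene hmgcra measured 8.47, 6.18, 9.89 and 10.5 CPM in mutants and 2.16, 2.07, 3.35 and 1.4 CPM in siblings (1.96 ± 0.32, adjusted p = 0.00119), and hmgcs1 rose by 0.56 ± 0.13 (adjusted p = 0.0181). The prenyl synthase gene fdps fell to 57.3, 49.5, 59.1 and 52.5 CPM in mutants, against 88.4, 77.0, 65.9 and 73.5 CPM in siblings (-0.48 ± 0.10, adjusted p = 0.0118), and acat2, the thiolase gene, fell too (-0.43 ± 0.10, adjusted p = 0.0268). The mutant effect on fdps thus had opposite signs at 48 and 24 hpf, and the difference was called (1.13 ± 0.16, adjusted p = 4.90e-04). The calls at 24 hpf were lost for hmgcs1 without mutant replicate 1 or 3 or sibling replicate 3, for fdps without mutant replicate 2 or 4 and under library-size scaling, and for acat2 under library-size scaling and without any 1 library other than sibling replicate 1, with adjusted p of at most 0.0901.

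**Figure D5:**
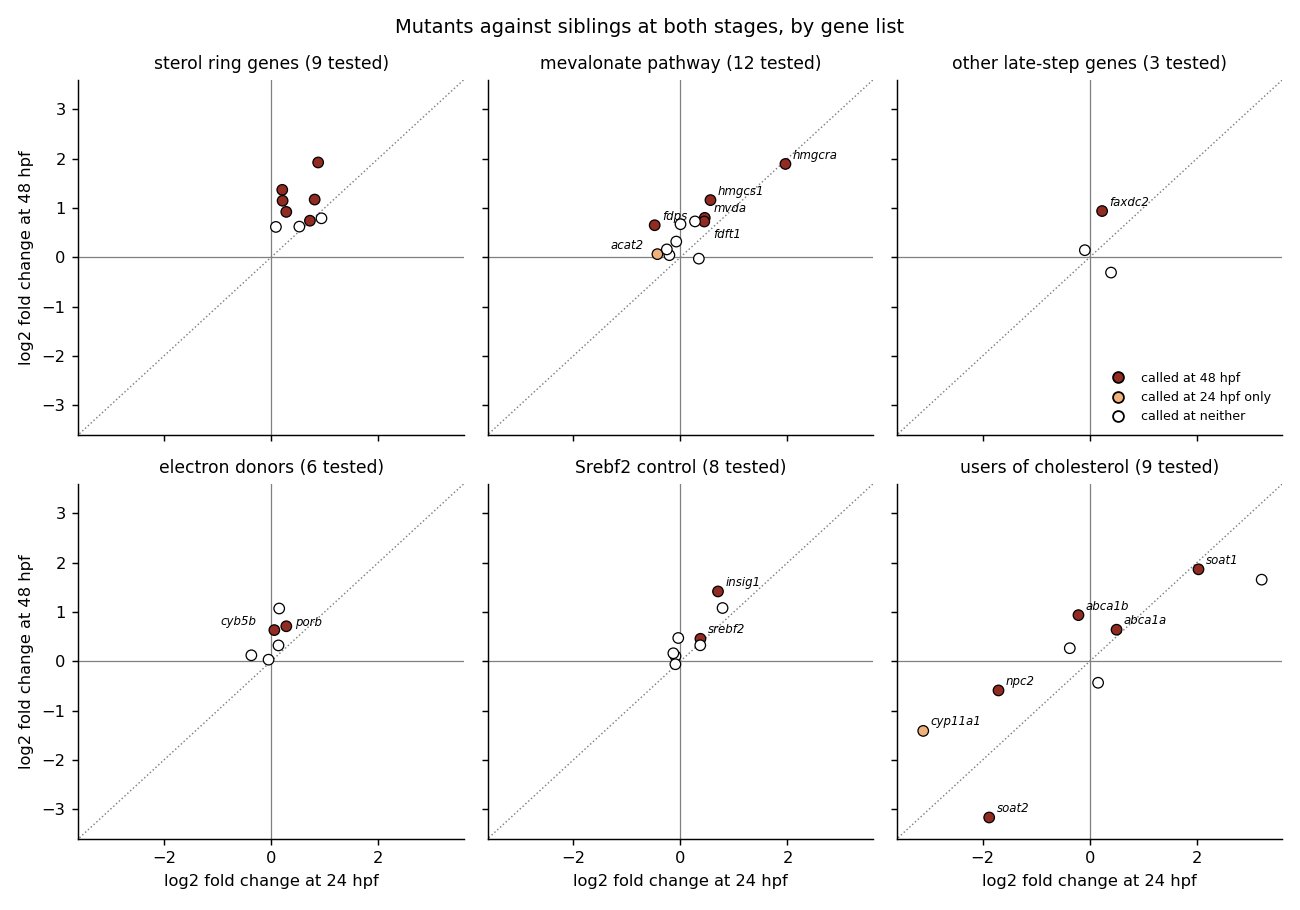
Log2 fold change of mutants against siblings at 48 hpf (vertical axis) and at 24 hpf (horizontal axis), a panel per gene list; each point is a gene, dark where called at 48 hpf, light where called at 24 hpf alone and open where called at neither, and the dotted line marks equal effects. All 9 sterol ring genes lie above 0 on both axes, and 8 of them lie above the dotted line, sc5d by 0.015 and nsdhl by 0.093. Of the 9, cyp51 alone had a called difference between stages.

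Other late-step genes were listed beside the 9. Of 3 tested, faxdc2, a gene of the fatty acid hydroxylase superfamily, was called higher at 48 hpf (0.94 ± 0.24, adjusted p = 0.0252). At 24 hpf 0 of the 3 were called by edgeR, DESeq2 or limma-voom, and 0 had an unadjusted p under 0.05. The gene lbr, whose product shares the reaction of tm7sf2, was called at neither stage (0.14 ± 0.098 at 48 hpf, -0.091 ± 0.085 at 24 hpf). The call of faxdc2 ended without mutant replicate 1 or 2 or sibling replicate 2 or 3 (adjusted p up to 0.0893). It also ended without both libraries of low mitochondrial share (0.75, adjusted p = 0.0797).

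Electron donors feed the oxidases among these enzymes, P450 reductase to cyp51 and cytochrome b5 to msmo1 and sc5d. Of 6 tested, edgeR called 2 higher at 48 hpf and 0 lower (also 0 at an unadjusted p under 0.05). DESeq2 and limma-voom each called 3 higher. Of all genes tested, edgeR called 4.26% higher and 1.80% lower at 48 hpf. At 24 hpf 0 of the 6 were called by edgeR, DESeq2 or limma-voom, and 1 was higher and 1 lower at an unadjusted p under 0.05. The P450 reductase gene porb measured 49.3, 41.7 and 52.0 CPM in mutants at 48 hpf, against 24.1, 28.4 and 34.8 CPM in siblings (0.71 ± 0.13, adjusted p = 0.00190). Its paralog pora was not called at 48 hpf, with a mean of 62.6 CPM in mutants and 61.2 CPM in siblings (0.032 ± 0.15, adjusted p = 0.947). The cytochrome b5 gene cyb5b measured 72.3, 69.3 and 67.1 CPM in mutants at 48 hpf, against 43.2, 44.4 and 47 CPM in siblings (0.63 ± 0.084, adjusted p = 1.17e-04). The mutant effect on cyb5b differed between stages (0.57 ± 0.11, adjusted p = 0.00749). The other cytochrome b5 gene tested, cyb5a, was called by edgeR neither at 48 hpf (0.32 ± 0.16, adjusted p = 0.311) nor at 24 hpf (0.14 ± 0.14, adjusted p = 0.721). Which cytochrome b5 serves msmo1 and sc5d in the embryo was not examined.

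Of 8 genes of Srebf2 control, srebf2 and insig1 were called higher at 48 hpf and again at 24 hpf. By edgeR, DESeq2 and limma-voom 0 were lower at either stage, also at an unadjusted p under 0.05. DESeq2 called 3 higher at each stage, and limma-voom 3 at 48 hpf and 2 at 24 hpf. Of all genes tested, edgeR called 4.26% higher at 48 hpf and 1.50% at 24 hpf. The factor srebf2 itself rose by 0.46 ± 0.11 at 48 hpf (adjusted p = 0.0160) and by 0.37 ± 0.094 at 24 hpf (adjusted p = 0.0334). The gene insig1, whose product holds the factor in the endoplasmic reticulum and which is itself a target of it, measured 64.4, 64.9 and 69.3 CPM in mutants at 48 hpf, against 21.1, 21 and 32.1 CPM in siblings (1.42 ± 0.18, adjusted p = 9.93e-05). At 24 hpf insig1 rose by 0.70 ± 0.16 (adjusted p = 0.0176). The call of srebf2 at 48 hpf ended without mutant replicate 3 or sibling replicate 1, and when the 48 hpf libraries were fitted alone (adjusted p = 0.12). At 24 hpf the call of insig1 ended without mutant replicate 1 or sibling replicate 4, and that of srebf2 without any 1 of 6 of the 8 libraries, mutant replicate 3 and sibling replicate 2 being the exceptions.

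Among 17715 other genes with a mean log2 CPM of at least 1, the 6 whose centred profile lay nearest to the mean of the 9 genes over the 14 libraries were pah (0.170), aacs (0.195), acsbg2 (0.214), pfkfb3 (0.215), hmgcs1 (0.219) and ca5a (0.220), where the number is the root mean square distance on the log2 scale and the median over the candidates was 0.644. The nearest, pah, encodes phenylalanine hydroxylase and measured 44.9, 65.0 and 62.5 CPM in mutants at 48 hpf, against 29.4, 31.1 and 29.6 CPM in siblings. At 24 hpf pah measured 27.8, 28.5, 33.5 and 31.5 CPM in mutants, against 22.2, 17.6, 25.3 and 26.6 CPM in siblings. At both stages pah was higher in every mutant library than in every sibling library. So were 12.0% of all genes tested at 48 hpf, and the share at 24 hpf was not counted. The others include acsbg2, an acyl-CoA synthetase gene, and aacs, which encodes acetoacetyl-CoA synthetase. Their log2 fold changes at 48 hpf ran from 0.74 ± 0.12 for ca5a, a mitochondrial carbonic anhydrase gene, to 1.16 ± 0.15 for hmgcs1, and at 24 hpf from 0.41 ± 0.13 for pah to 0.59 ± 0.13 for aacs. These genes were chosen by likeness to a profile that holds the mutant effect, so their fold changes and the lack of overlap in pah are descriptions.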

How the data were processed

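Total RNA from whole embryos was extracted with TRIzol and made into libraries with a NEBNext Ultra RNA kit, per the labels' protocols. The deposited table holds raw read counts per gene, made by the authors with FastQC 0.12.1, Trim Galore 0.6.10, STAR 2.7.10b and featureCounts 2.0.6 on GRCz11, per the submitters' processing notes. The table has 36109 genes, 4130 of them without a count, and 14 libraries.

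Genes kept by filterByExpr (minimum count 10) numbered 24424 and held 99.96% of counts. All libraries were fitted as 4 groups (10 residual degrees of freedom) with TMM factors and the quasi-likelihood test of edgeR 4.0.16 in R 4.3.3. P-values were adjusted by Benjamini-Hochberg over all genes tested and called at 0.05. CPM values use TMM-scaled library sizes. Errors of log2 fold changes are SE, from the fold change and the F statistic. Alternatives were DESeq2 1.42.0, limma-voom (limma 3.58.1), RLE or library-size scaling, other low-count filters, a replicate block, libraries of 1 stage, leaving out each library, and leaving out both libraries of low mitochondrial share. The steps were tested on simulated data.

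The 9 genes and all lists were chosen with earlier results of these data known. Named were the 9 genes in every comparison, mttp and the 6 genes nearest in profile. Also named were the genes of the lists called in a mutant comparison, up to 6 per list by smallest p. The genes sqlea, hmgcrb, pora, cyb5a, lbr, serpina1 and the overlapping cetn2 and nadsyn1 were added after their values were seen. Some genes of the lists are not reported here and are left out of the list counts. The symbols sqleb, erg28 and cyp11a1.2 were not found. No gene lengths of the files' build, proteins or promoters were used here, so levels are not corrected for gene length and planned motif counts were not run. The share of counts taken by cyp51 and the sums of CPM over genes therefore also depend on gene length. No replicate pair matched within sampling noise (lowest chi-square per degree of freedom 9.72). Counting intervals cover counting error only.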

Additional observations from a re-analysis of the deposited data

Results flagged for a closer look

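The mutant effect on cyp51 differed between stages: it was larger at 48 hpf than at 24 hpf by 1.16 ± 0.17 on the log2 scale (adjusted p = 7.49e-04 by edgeR). Among siblings at 24 hpf, tm7sf2 in replicate 3 stood far above the other 3 libraries, at 3.94 CPM against 1.71 to 2.07 CPM. In the same group, ebp in replicate 2 stood far below the other 3 libraries, at 6.27 CPM against 8.27 to 8.50 CPM; this library also has a low mitochondrial share. These were 2 of 18 sets examined, each the 4 values of a gene in a group. Chance alone picks out about 1 set in 20, but sets of the same group share libraries and are not independent.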

How the results depend on the processing

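Of 774 values of the 9 genes recomputed under alternatives, 687 kept direction and side of the threshold, 38 lost a call, 19 gained one and 30 changed sign; of 38 calls of other named genes, 24 held in every alternative. Members called higher at 48 hpf numbered 2 to 7 (6 with all libraries), and at 24 hpf 0 to 2, when 1 library was left out; at 24 hpf they numbered 0 without both libraries of low mitochondrial share and 1 by limma-voom. For the difference between stages the count was 2 without those libraries, by DESeq2 and with the replicate block, and 1 to 2 with 1 library left out. In siblings, members lower at 48 hpf numbered 1 without both libraries, under library-size scaling and without a low-count filter, and 1 to 2 with 1 library left out. 

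Sign changes, none of a called value, were as follows. Without both libraries of low mitochondrial share the values were -0.027 for dhcr7 between stages in siblings, and, for the difference between stages, -0.255 for nsdhl, -0.0115 for sc5d and 0.024 for tm7sf2. The sc5d difference was -0.041 under the CPM filter, -0.019 by DESeq2 and under RLE, -0.061 under library-size scaling and -0.020 without a filter. Between stages in mutants hsd17b7 was -0.0022 under the CPM filter and -0.024 under library-size scaling. With 1 library left out, values ran from -0.109 to 0.170 (dhcr7 in siblings), -0.075 to 0.107 (hsd17b7 in mutants), -0.0040 to 0.224 (hsd17b7 at 24 hpf), -0.0017 to 0.326 (lss in mutants), and for the difference from -0.094 to 0.247 (nsdhl), -0.104 to 0.217 (sc5d) and -0.48 to -0.014 (tm7sf2). 

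Over all genes, those called higher at 24 hpf (366) numbered 626 by DESeq2, 1040 with libraries of the stage and the replicate block, and 550 under library-size scaling; those lower (568) numbered 995, 1540 and 313 in that order, 853 with libraries of the stage, and 258 to 480 with 1 library left out. At 48 hpf 1040 higher became 615 with libraries of the stage. The 440 lower became 701 without both libraries, 843 by DESeq2, 735 by limma-voom and 207 to 417 with 1 library left out. For the difference, 594 higher ran from 342 to 1053 with 1 library left out, and 180 lower became 481 without both libraries, 281 under the CPM filter, 504 by DESeq2, and 88 to 375 with 1 library left out. The cause was not tested. 

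Whether replicate numbers pair the samples is not established: no label says so, and same-numbered mutants and siblings correlated by 0.0677 to 0.306 at 24 hpf and 0.0874 to 0.273 at 48 hpf. Every sample correlated best with its own number within its stage, a hint of pairing from the data. Across stages same-numbered libraries correlated by 0.114 to 0.283 in mutants and 0.043 to 0.255 in siblings. Libraries of different number were not compared across stages, so these values do not bear on pairing. With the replicate block, 6 members were called at 48 hpf and 2 at 24 hpf, and over all genes 1152 were higher and 485 lower at 48 hpf. The block gained the ebp difference between stages (0.95, adjusted p = 0.0381) and nsdhl between stages in mutants (adjusted p = 0.0322). With libraries of the stage, the block ended the 48 hpf calls of srebf2 (adjusted p = 0.0809) and npc2 (adjusted p = 0.0528). The gene msmo1 had the lowest single count of the 9 genes, 8 in sibling replicate 2 at 24 hpf. It also had the largest SE of the 9 in both mutant comparisons.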

Other observations

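Of 9 tested genes whose products use or carry cholesterol, 3 were called higher and 2 lower in mutants at 48 hpf, and 1 higher and 3 lower at 24 hpf. Over all genes tested, 4.26% were called higher and 1.80% lower at 48 hpf, and 1.50% higher and 2.33% lower at 24 hpf. The sterol O-acyltransferase genes soat1 and soat2, whose products esterify cholesterol, moved in opposite directions. At 48 hpf soat1 measured 8.44, 9.09 and 11.1 CPM in mutants, against 2.96, 2.08 and 2.78 CPM in siblings (1.86 ± 0.18, adjusted p = 6.37e-06). At 48 hpf soat2 measured 0.812, 0.139 and 1.47 CPM in mutants, against 12.8, 3.28 and 5.64 CPM in siblings (-3.17 ± 0.53, adjusted p = 0.00113). At 24 hpf soat1 rose by 2.03 ± 0.15 (adjusted p = 2.78e-07), and soat2 fell by 1.88 ± 0.40 (adjusted p = 0.0128), a call lost without mutant replicate 1 or 3.

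The lysosomal sterol carrier gene npc2 measured 65.1, 79.2, 93.3 and 93.8 CPM in mutants at 24 hpf, against 259, 298, 269 and 254 CPM in siblings (-1.70 ± 0.12, adjusted p = 1.12e-07). At 48 hpf its fall was smaller (-0.59 ± 0.13, adjusted p = 0.0109), a call lost without mutant replicate 3, and the difference between stages was called. The cholesterol exporter gene abca1b measured 532, 460 and 492 CPM in mutants at 48 hpf, against 265, 243 and 267 CPM in siblings (0.94 ± 0.12, adjusted p = 1.26e-04), and its mutant effect differed between stages. Its paralog abca1a rose by 0.64 ± 0.16 at 48 hpf (adjusted p = 0.0235), a call lost without mutant replicate 2 or 3 or sibling replicate 2, and without both sibling libraries of low mitochondrial share (adjusted p = 0.0540). The side-chain cleavage gene cyp11a1, which starts steroid synthesis, measured 0.385, 0.642, 0.207 and 0.392 CPM in mutants at 24 hpf, against 5.43, 5.44, 2.11 and 1.13 CPM in siblings (-3.11 ± 0.69, adjusted p = 0.0159). That call was lost without mutant replicate 1, 3 or 4 or sibling replicate 1 or 2, and by limma-voom.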
